A study of Mus musculus with 9 samples.

Results

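Rosiglitazone is an agonist of PPARγ, a nuclear receptor that switches on lipid storage genes in adipocytes. Its relative PPARα drives fatty acid oxidation in the kidney tubule, and several lipid-handling genes answer to both receptors. The 10 genes described here, Fabp4, Cd36, Adipoq, Lpl, Plin1, Plin2, Plin4, Cidec, Angptl4 and Pdk4, are classic targets of these receptors. They were chosen by gene symbol among the 21950 protein-coding genes of the study, and the FPKM (fragments per kilobase of transcript, scaled to the mapped fragments of the library) of the mRNA transcripts was added up per gene. Fabp4, Adipoq, Plin1, Plin4 and Cidec were taken as adipocyte-type targets, Plin2, Angptl4 and Pdk4 as targets that tubular cells also express, and Cd36 and Lpl as genes of fatty acid uptake shared by adipocytes and other cells.

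The tissue was the renal cortex of male C57BL/KsJ mice at 15 weeks of age, with 3 mice and 1 library per mouse in each of 3 groups. Control mice were db/m littermates, heterozygous for the db mutation of the leptin receptor, and received the vehicle. The dbdb mice were homozygous for db, obese and diabetic, and received the vehicle by gavage. The dbR mice were also homozygous for db and received rosiglitazone by gavage at 20 mg/kg/day for 8 weeks, starting at 7 weeks of age. No library came from db/m mice given rosiglitazone, so the drug was compared within the db/db background only, and the whole animal lacked leptin receptor signalling, not the kidney alone. The db mutation changes the splicing of the long receptor form, so the total level of the gene is only a loose check of the genotype. Compared to control mice, Lepr fell by 1.31 on the log2 scale in each db/db group (limma adjusted p = 0.00430 in dbdb and 0.00453 in dbR mice), with no overlap between the libraries.

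The libraries were rRNA-depleted, and the steps between their low FPKM values corresponded to an estimated 25.0 M to 31.2 M fragments each. Mitochondrial genes held 26.9% to 32.8% of the FPKM. The 10 proximal tubule markers examined summed to 5877 to 7372 FPKM per library, which fits the labelled tissue. Differences were tested with limma on log2(FPKM + 0.1) in 1 fit over all 9 libraries, for the 14537 genes whose mean FPKM reached 0.1. A gene was called at an adjusted p (Benjamini-Hochberg over all genes tested) under 0.05. All log2 fold changes below are on this scale, which understates the change of genes with low FPKM. In whole cortex, fewer cells of a type and less RNA per cell cannot be told apart.

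The levels of the 10 genes in the renal cortex spanned more than 3 orders of magnitude. In control mice the mean FPKM was 255 for Cd36, 157 for Lpl, 44.9 for Plin2, 36.3 for Fabp4, 6.98 for Angptl4 and 1.34 for Pdk4. It was 0.502 for Plin4, 0.267 for Cidec, 0.182 for Adipoq and 0.0643 for Plin1. The adipocyte-type genes other than Fabp4 were therefore at the lower end, and Plin1 fell below the filter and was not tested.

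**Figure D1:**
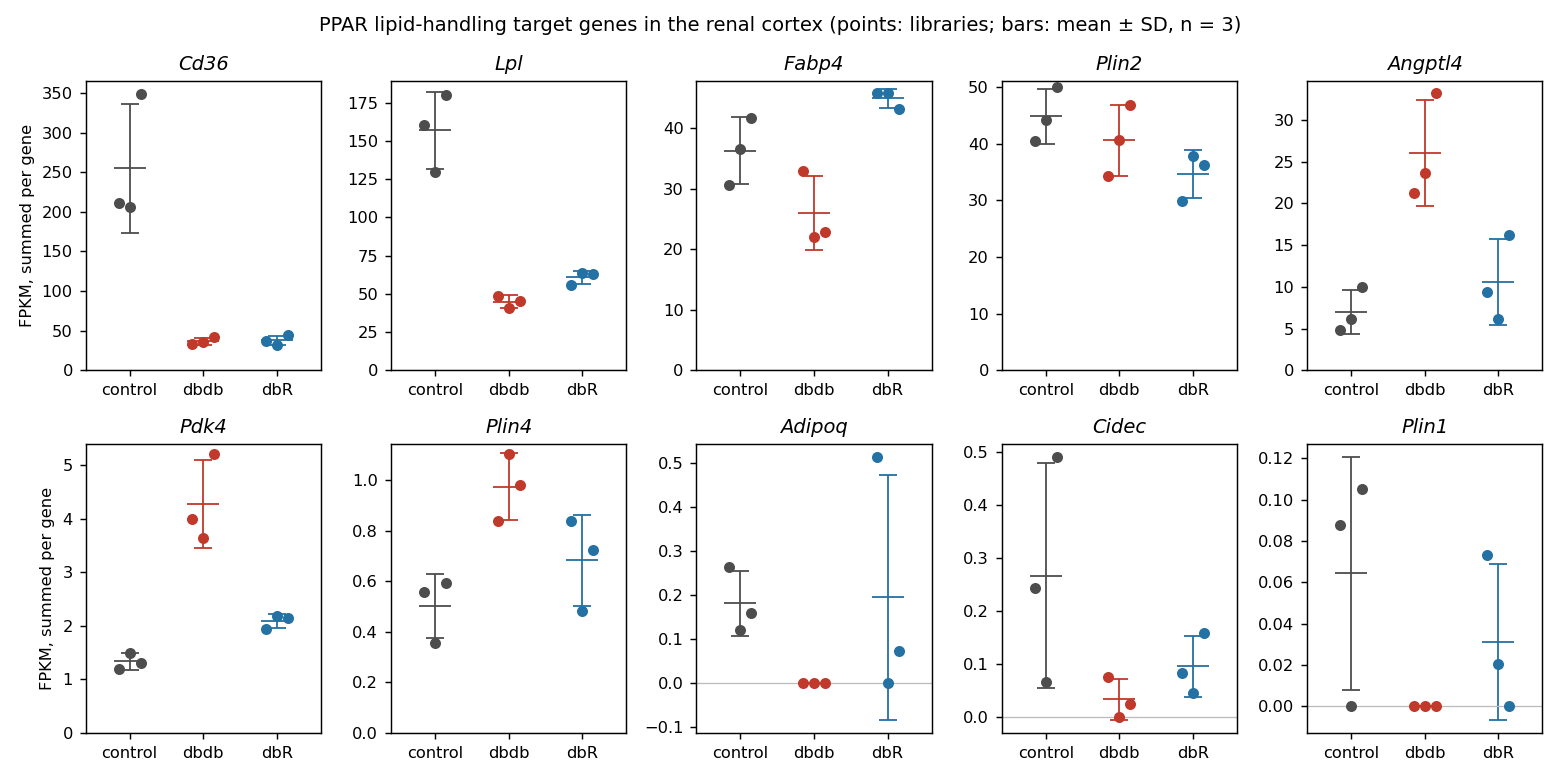
FPKM of the 10 genes (y axis, summed per gene, linear, a different range in each panel) in the control, dbdb and dbR groups. Points are libraries, horizontal lines are means and bars are the SD of 3 libraries. Cd36 and Lpl lay far above all db/db libraries in the control group, Angptl4 and Pdk4 were highest in the dbdb group, and Plin4, Adipoq, Cidec and Plin1 stayed near or below 1 FPKM.

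Of the 9 genes tested, 6 differed between dbdb and control mice, where 26.4% of all genes were called. Angptl4, Pdk4 and Plin4 rose, as 13.1% of all genes did, and Cd36, Lpl and Fabp4 fell, as 13.4% did. Between dbR and dbdb mice 2 of the 9 were called, against 0.743% of all genes. Fabp4 was upregulated, as 0.564% of all genes were, and Pdk4 was downregulated, as 0.179% were. Between dbR and control mice 3 of the 9 were called, against 24.1% of all genes. Pdk4 was higher in dbR mice, as 12.3% of all genes were, and Cd36 and Lpl were lower, as 11.8% were. The groups did not overlap for 6, 5 and 5 of the 9 genes in dbdb vs control, dbR vs dbdb and dbR vs control, against 42.4%, 22.7% and 41.9% of all genes. Any 2 of these comparisons share the 3 libraries of 1 group, so they are not independent of each other. The median log2 fold change of all genes tested was -0.0030, -0.0022 and -0.0014 in the same order.

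**Figure D2:**
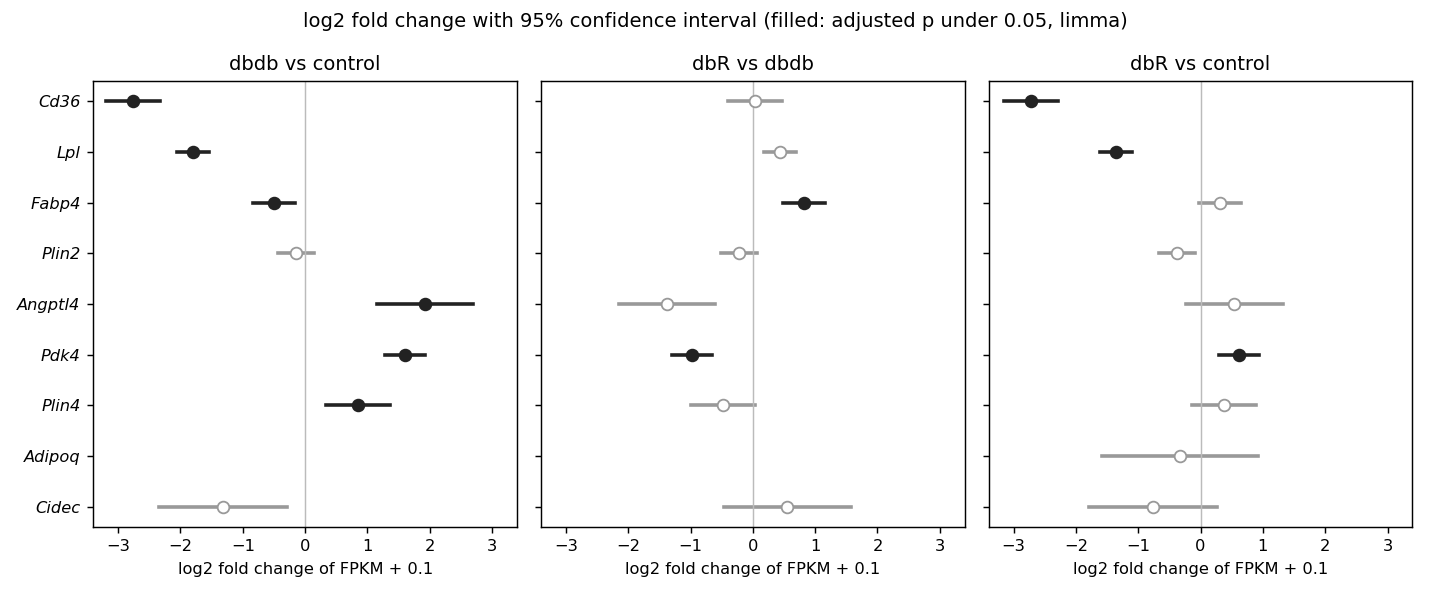
log2 fold change (x axis) of the genes tested in dbdb vs control, dbR vs dbdb and dbR vs control, with lines for the 95% confidence interval and filled points for an adjusted p under 0.05 from limma. Plin1 is left out because it was below the filter, and Adipoq is shown only in dbR vs control because it was listed at 0 in every dbdb library. Cd36 and Lpl lie to the left in both comparisons with control mice, Angptl4 and Pdk4 to the right in dbdb vs control and to the left in dbR vs dbdb.

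Promoter windows are shown for 3 members whose totals behaved differently, Cd36 (low in both db/db groups), Plin2 (not called) and Pdk4 (high in dbdb, lower in dbR). The Cd36 window belongs to its 3′-most, minor start, which was not low in db/db mice (mean FPKM 1.09, 1.75 and 4.27 in control, dbdb and dbR mice). The windows of its other starts are not shown. PPARs bind DNA with the retinoid X receptor at a direct repeat of the core motif AGGTCA with 1 base between the copies. The windows are the 250 bases before the RefSeq start (GRCm38.p6), written 5′ to 3′ on the strand of the gene, the minus strand in each case. Capitals mark the core motif AGGTCA or its reverse complement TGACCT.
Cd36, chr5:17835897-17836146: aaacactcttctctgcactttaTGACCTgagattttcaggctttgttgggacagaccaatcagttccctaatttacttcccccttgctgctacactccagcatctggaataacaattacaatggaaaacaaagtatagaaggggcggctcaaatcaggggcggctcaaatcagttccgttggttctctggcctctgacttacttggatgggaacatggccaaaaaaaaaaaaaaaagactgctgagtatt
Plin2, chr4:86670060-86670309: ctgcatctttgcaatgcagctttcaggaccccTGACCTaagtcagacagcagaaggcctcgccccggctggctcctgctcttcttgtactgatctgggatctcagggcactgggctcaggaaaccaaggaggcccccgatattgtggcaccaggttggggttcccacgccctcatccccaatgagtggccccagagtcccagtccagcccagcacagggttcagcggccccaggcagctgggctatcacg
Pdk4, chr6:5496279-5496528: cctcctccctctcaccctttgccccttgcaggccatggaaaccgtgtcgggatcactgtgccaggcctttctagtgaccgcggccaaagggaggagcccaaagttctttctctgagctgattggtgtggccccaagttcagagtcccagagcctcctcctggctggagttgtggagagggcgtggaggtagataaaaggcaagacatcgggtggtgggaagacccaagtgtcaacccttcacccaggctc
RefSeq windows were used for 7 of the 10 members. The full repeat (AGGTCA, any base, AGGTCA), searched on both strands, was in none of them and in 0.0335% of the 32851 windows of all genes. The core motif, which is contained in the full repeat, had 1 match each in Cd36 and Plin2 and none in the other 5 members, and 14.0% of all windows held it. A match is a run of letters, not evidence of binding. The exact full repeat is so rare over all windows that its absence from those of 7 members tells nothing about their regulation by PPARs.

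Lipoprotein lipase (Lpl) splits the triglycerides of circulating lipoproteins at the capillary wall. Lpl (ENSMUSG00000015568, chr8:68880491-68907448, plus strand) has 1 transcript in the files, so its value does not rest on a division of reads between transcripts. Its FPKM was 161, 130 and 180 in the 3 control libraries, 48.7, 40.5 and 45.1 in dbdb libraries and 55.6, 63.7 and 62.9 in dbR libraries. No 2 groups overlapped, and the order was control, dbR, dbdb. Compared to control mice, Lpl fell by 1.80 on the log2 scale in dbdb mice (SE 0.12, limma adjusted p = 1.26e-05) and by 1.36 in dbR mice (adjusted p = 6.13e-05). The mean in dbdb mice was 28.5% and the mean in dbR mice 38.7% of the control mean. The difference between dbR and dbdb was 0.44 (95% confidence interval 0.18 to 0.70) and did not pass the threshold over all genes (limma adjusted p = 0.0999), although all 3 dbR libraries lay above all 3 dbdb libraries.

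Cd36, a membrane protein that takes up long-chain fatty acids and oxidized lipoproteins, showed the largest log2 fold change among the members called. Its FPKM (ENSMUSG00000002944, chr5:17781690-17888801, minus strand) was 211, 206 and 349 in control mice, 33.2, 35.3 and 41.5 in dbdb mice and 36.7, 32.2 and 44.3 in dbR mice. The control libraries were all above the others, control replicate 3 the most, and the dbdb and dbR libraries overlapped. The log2 fold change was -2.76 in dbdb vs control (SE 0.19, limma adjusted p = 1.84e-05), a mean of 14.4% of control, and -2.72 in dbR vs control (adjusted p = 2.75e-05). Without control replicate 3 the dbdb vs control value was -2.51, the smallest decrease when any 1 library was left out. Between dbR and dbdb mice the difference was 0.034, with a 95% confidence interval of -0.40 to 0.47 (limma adjusted p = 0.951). Cd36 was therefore called lower in both db/db groups, and for dbR against dbdb the interval excluded changes beyond 0.47 in either direction.

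The 6 Cd36 transcripts in the files start at 3 places, with 2 transcripts at each. The 5′-most start (positions 17888747 to 17888801) carried 58.6% to 65.6% of the Cd36 FPKM in control libraries, 63.6% to 66.0% in dbdb libraries and 62.8% to 69.0% in dbR libraries. The middle start (17849729 to 17849792) carried 34.4% to 39.9%, 22.7% to 36.0% and 21.7% to 25.9%, and all 3 dbR libraries were below all 3 control libraries. The 3′-most start (17835696 to 17835717), just downstream of the promoter window printed above, carried 0.00416% to 1.44% in control libraries, 0.380% to 12.7% in dbdb libraries and 9.23% to 13.8% in dbR libraries. In FPKM, the 3′-most start was at 0.00876, 2.96 and 0.308 in control libraries, 4.23, 0.134 and 0.882 in dbdb libraries and 3.38, 4.45 and 4.97 in dbR libraries. The control and dbR libraries did not overlap there, while dbdb replicate 1 lay within the range of the dbR libraries. The starts share most of their exons, so these shares rest on how Cufflinks divided the reads, and they were not tested. As Cufflinks divided the reads, the fall in the total lay in the 5′-most and middle starts. Their mean FPKM was 158 and 96.6 in control mice and 23.8 and 11.2 in dbdb mice.

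**Figure D3:**
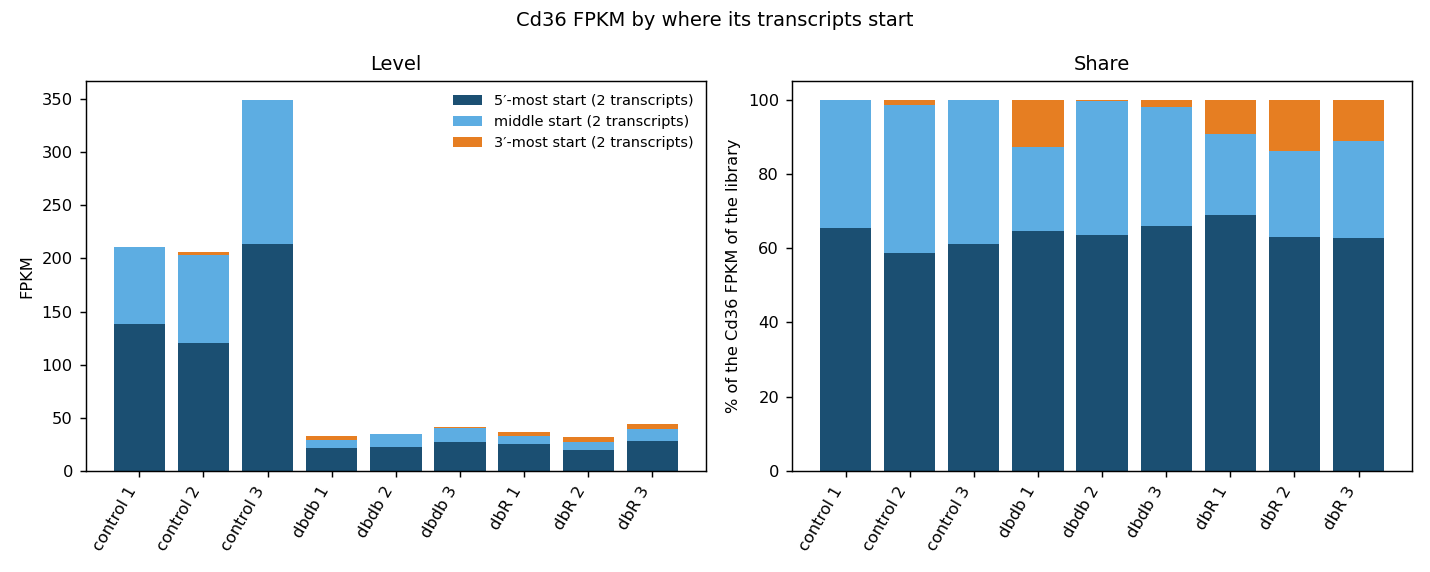
FPKM of Cd36 (left, y axis) and its share in percent (right, y axis) by the place where its transcripts start, for each of the 9 libraries (x axis). Stacked bars start at 0. The 5′-most start holds 58.6% to 69.0% of the FPKM in every library, and the 3′-most start exceeds 9% in the 3 dbR libraries and in dbdb replicate 1.

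Angptl4, a secreted inhibitor of lipoprotein lipase that fasting and fatty acids induce, was highest where Lpl was lowest. Its FPKM (ENSMUSG00000002289, chr17:33773750-33781830, minus strand, 1 transcript) was 4.83, 6.17 and 9.93 in control mice, 21.2, 23.6 and 33.2 in dbdb mice and 9.37, 6.10 and 16.2 in dbR mice. Every dbdb library was above every control and every dbR library, and the control and dbR libraries overlapped. Angptl4 was upregulated in dbdb compared to control mice, with a log2 fold change of 1.92 (SE 0.35, limma adjusted p = 0.00326) and a mean 3.73 times the control mean. The difference between dbR and dbdb was -1.38 (95% confidence interval -2.15 to -0.61), which did not pass over all genes (limma adjusted p = 0.0880). It passed under 1 of 16 alternatives, the replicate block (adjusted p = 0.0441). In dbR vs control it was 0.54 (adjusted p = 0.290), and it lay between 0.18 (without dbR replicate 3) and 0.88 (without dbR replicate 2) with 1 library left out.

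Gpihbp1, the endothelial protein that anchors lipoprotein lipase in capillaries, belongs to the list of 28 relatives and partners of the members. Its FPKM was 14.9, 13.5 and 15.9 in control libraries, 8.56, 7.72 and 6.19 in dbdb libraries and 11.3, 14.3 and 13.6 in dbR libraries. The dbdb libraries were all below the others. It fell by 0.98 in dbdb vs control mice (limma adjusted p = 0.000524) and rose by 0.80 in dbR vs dbdb mice (adjusted p = 0.0295), and the second call was lost under 7 of 16 alternative settings (adjusted p up to 0.149). Lmf1, which folds the lipase, was at 13.8 ± 0.27, 15.2 ± 0.96 and 13.4 ± 0.64 FPKM (SD, n = 3) in control, dbdb and dbR mice and was not called in dbdb vs control or in dbR vs dbdb.

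Fabp4 carries fatty acids in the cytosol of adipocytes, and is also known from capillary endothelium and macrophages. Its FPKM (ENSMUSG00000062515, chr3:10204088-10208576, minus strand, 1 transcript of 4 exons) was 30.6, 36.6 and 41.6 in control libraries, 32.9, 21.9 and 22.8 in dbdb libraries and 45.8, 45.8 and 43.2 in dbR libraries. All dbR libraries were above all other libraries, while dbdb replicate 1 lay inside the control range. Fabp4 rose by 0.82 in dbR vs dbdb mice (SE 0.15, limma adjusted p = 0.0450), a mean 1.73 times that of dbdb mice. The call was close to the threshold and was lost under 9 of 16 alternatives, including leaving out dbdb replicate 2 or 3 or any 1 dbR library, with adjusted p between 0.0243 and 0.189. In dbdb vs control mice Fabp4 fell by 0.50 (SE 0.15, limma adjusted p = 0.0355), a call that was also lost under 9 of 16 alternatives, among them leaving out control replicate 2 or 3 or dbdb replicate 2 or 3 (adjusted p up to 0.122). In dbR vs control mice the difference was 0.32 (adjusted p = 0.158).

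Adipoq and Plin1 were both listed at 0 in all 3 dbdb libraries, while their zeros in the other groups were in different libraries. Adipoq, which encodes the adipocyte hormone adiponectin (ENSMUSG00000022878, chr16:23146536-23158028), was at 0.265, 0.121 and 0.161 FPKM in control libraries, was listed at 0 in all 3 dbdb libraries and was at 0.515, 0 and 0.0723 in dbR libraries. These values correspond to at most an estimated 20.7 fragments per library. The control and dbdb libraries did not overlap, but the difference did not pass (limma adjusted p = 0.0811), although it did under 2 of 14 alternatives (lowest adjusted p = 0.0142). The difference between dbR and dbdb did not pass either (adjusted p = 0.331), where dbR replicate 1 alone was high and dbR replicate 2 was listed at 0. Plin1, the perilipin that coats the droplets of adipocytes (ENSMUSG00000030546, chr7:79720218-79732903), was at 0.0877, 0 and 0.105 FPKM in control libraries, listed at 0 in all dbdb libraries and at 0.0732, 0.0206 and 0 in dbR libraries, at most 8.20 estimated fragments.

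Cidec, which fuses lipid droplets (ENSMUSG00000030278, chr6:113424634-113435760), was at 0.243, 0.0666 and 0.491 FPKM in control libraries, 0.0757, 0 and 0.0240 in dbdb libraries and 0.0833, 0.0451 and 0.158 in dbR libraries. The groups overlapped in each comparison and none of them passed (limma adjusted p = 0.0589, 0.574 and 0.259 for dbdb vs control, dbR vs dbdb and dbR vs control), although dbdb vs control did under 2 of 13 alternatives (lowest adjusted p = 0.0149). Of the white adipocyte markers outside the members, the protease adipsin (Cfd) was at 1.64, 0.106 and 1.88 FPKM in control libraries, at 0, 0 and 0.0518 in dbdb libraries and listed at 0 in all dbR libraries. The hormone resistin (Retn) was at 0.0554, 0.0573 and 0.373 in control libraries and listed at 0 in all 6 db/db libraries. Leptin (Lep) was at most 0.0343 FPKM in any library, and Adrb3 at most 0.0620. Control replicate 2 was low for Cfd, Cidec and Plin1 together. Of the 10 white adipocyte markers 6 were tested. Compared to control mice, 2 rose in dbdb mice (Thrsp and Lipe) and 2 fell (Cfd and Car3), against 13.1% and 13.4% of all genes. The Cfd call was lost without control replicate 1 or 3. In dbR vs dbdb mice none was called by limma, and 2 had an unadjusted p under 0.05. Car3, a carbonic anhydrase of adipocytes and muscle, was at 31.4 ± 2.5, 14.0 ± 3.0 and 11.4 ± 0.86 FPKM (SD, n = 3) in control, dbdb and dbR mice. Lipe, the hormone-sensitive lipase, was at 4.27 ± 0.53, 6.07 ± 0.11 and 5.28 ± 0.47 and Thrsp, a regulator of lipogenesis, at 1.60 ± 0.36, 4.05 ± 0.32 and 2.89 ± 0.33, both highest in dbdb mice.

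Of the 4 adipocyte-type members tested, Fabp4 was the 1 that passed between dbR and dbdb mice. Its level of 21.9 to 45.8 FPKM stood beside an Adipoq level of at most 0.515 FPKM. The highest Adipoq value was in dbR replicate 1, where Fabp4 was at 45.8 FPKM. Fabp4 was also at 45.8 FPKM in dbR replicate 2, where Adipoq was listed at 0. The means of Adipoq, Plin1 and Cidec were higher in dbR than in dbdb mice (Plin1 not tested, the others not passing the test). Plin4 was at -0.48 on the log2 scale and did not pass. Of the 6 white adipocyte markers outside the members that were tested, 1 (Sncg) had a log2 fold change above 0 in dbR vs dbdb mice and 5 (Cfd, Trarg1, Car3, Thrsp and Lipe) had one below 0, with a median of -0.20. None passed the test by limma (2 of the 6 at an unadjusted p under 0.05). The part of adipocytes in the Fabp4 values was not tested.

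Endothelial markers were measured beside Fabp4. The 10 markers summed to 179 to 196 FPKM in control libraries, 148 to 164 in dbdb libraries and 197 to 221 in dbR libraries, with no overlap between the groups. Of the 10 markers 5 fell in dbdb vs control mice, where 13.4% of all genes fell, and none rose. The other 5 were not called there and had log2 fold changes above 0. In dbR vs dbdb mice 4 rose (Gpihbp1, Emcn, Kdr and Tek), where 0.564% of all genes rose, and none fell. The median log2 fold change of the list was -0.14 and 0.39. Emcn, endomucin, was at 36.0 ± 1.2, 23.6 ± 0.75 and 37.4 ± 4.7 FPKM (SD, n = 3) in control, dbdb and dbR mice, and Kdr, the VEGF receptor, at 25.2 ± 1.9, 19.9 ± 2.1 and 28.5 ± 0.87. The rise in dbR mice was 0.66 for Emcn (limma adjusted p = 0.0205) and 0.52 for Kdr (adjusted p = 0.0309). Pecam1 was at 21.8 ± 1.6, 15.2 ± 1.4 and 21.6 ± 2.5 FPKM (SD, n = 3), and its difference of 0.51 between dbR and dbdb missed the threshold (limma adjusted p = 0.0517). Plvap, the most abundant of the 10, had 40.9, 45.9 and 50.6 FPKM in the group means and was not called in either of these comparisons. The count of 4 fell to 0 without dbR replicate 2 or dbR replicate 3 and lay between 0 and 5 over all 16 alternatives, and the count of 5 in dbdb vs control lay between 3 and 5. The part of endothelial cells in the Fabp4 values was not tested.

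**Figure D4:**
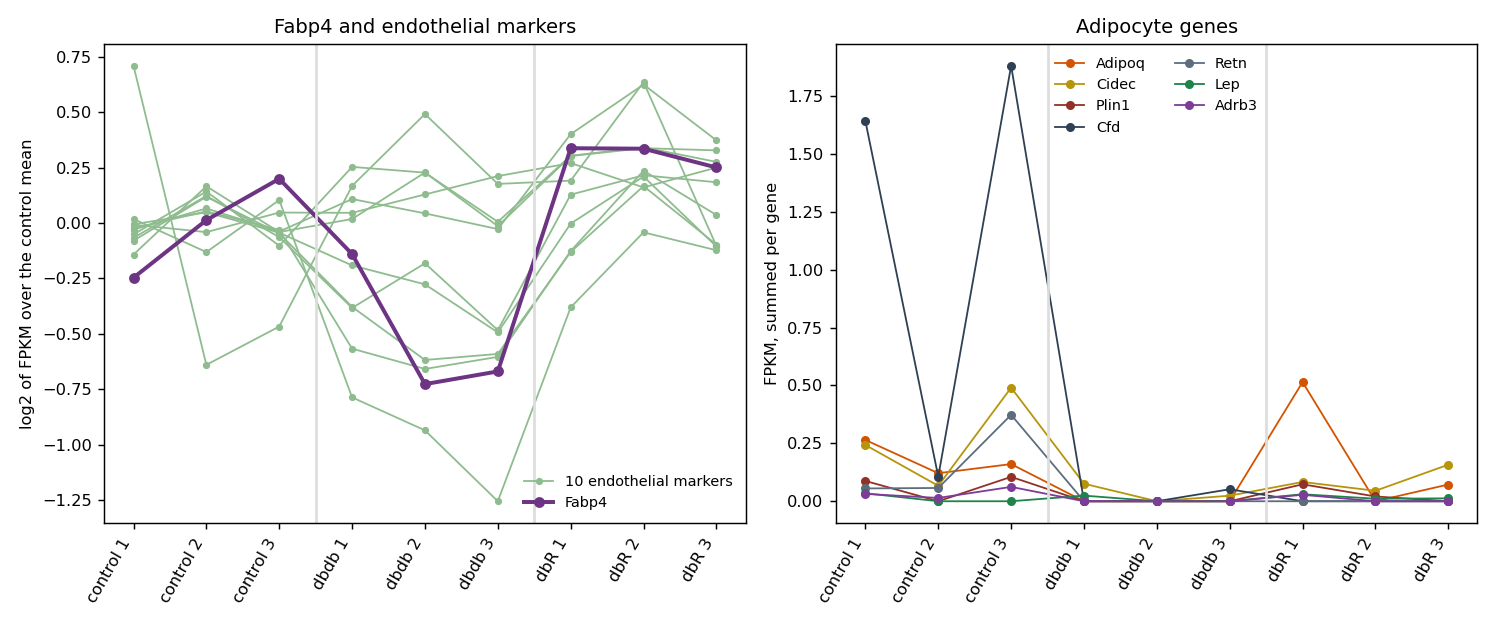
Left, Fabp4 and the 10 endothelial markers in each library (x axis) as log2 of FPKM over the control mean (y axis). Right, FPKM (y axis) of Adipoq, Cidec, Plin1, Cfd, Retn, Lep and Adrb3 in the same libraries. Not drawn are the more abundant markers Car3, Lipe, Sncg and Thrsp, nor Trarg1 and Acvr1c, which had low levels. Trarg1 means were 0.279, 0.342 and 0.323 FPKM in control, dbdb and dbR mice. Lines join the libraries for reading only. Fabp4 is lowest in dbdb replicates 2 and 3 and above every other library in the dbR group, whereas Cfd is high in control replicates 1 and 3 only and Adipoq highest in dbR replicate 1.

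Macrophages, which can also express Fabp4, had 9 markers that summed to 63.8 to 80.1 FPKM in control libraries, 33.4 to 55.3 in dbdb libraries and 45.9 to 60.1 in dbR libraries. Of these, 4 fell in dbdb vs control mice, Csf1r, Lyz2, Adgre1 and Cd68, where 13.4% of all genes fell. None was called by limma in dbR vs dbdb mice (5 had an unadjusted p under 0.05), with all 9 log2 fold changes between dbR and dbdb above 0. Their part in the Fabp4 values was not tested.

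Plin2 coats lipid droplets in most cell types, the tubule included. It was at 40.4, 44.1 and 50.0 FPKM in control libraries (ENSMUSG00000028494, chr4:86648386-86670060, minus strand), 34.3, 40.6 and 46.9 in dbdb libraries and 29.8, 37.9 and 36.2 in dbR libraries. The dbR libraries were all below the control libraries, and the dbdb libraries overlapped both. The difference was -0.15 in dbdb vs control (95% confidence interval -0.44 to 0.14, limma adjusted p = 0.426), -0.22 in dbR vs dbdb (-0.51 to 0.06, adjusted p = 0.399) and -0.37 in dbR vs control (-0.66 to -0.09, adjusted p = 0.0593). Plin2 was thus the abundant member with the narrowest range over the 9 libraries, and none of its comparisons passed, although dbR vs control did under 2 of 16 alternatives (lowest adjusted p = 0.00887). One transcript carried 99.8% of its FPKM.

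Plin4, a perilipin of adipocytes and muscle, was at 0.556, 0.356 and 0.593 FPKM in control libraries (ENSMUSG00000002831, chr17:56100591-56109803, minus strand), 0.840, 1.10 and 0.979 in dbdb libraries and 0.838, 0.483 and 0.725 in dbR libraries. The dbdb libraries were all above the others, but dbdb replicate 1 (0.8397) barely exceeded dbR replicate 1 (0.8381). For Plin4, 1 fragment is worth an estimated 0.0056 to 0.0069 FPKM, more than that gap. It rose by 0.85 in dbdb vs control mice (SE 0.23, limma adjusted p = 0.0218), which was lost under 4 of 15 alternatives, without control replicate 2, without dbdb replicate 2 or 3, and with the most abundant transcript alone (adjusted p up to 0.182). The difference between dbR and dbdb was -0.48 (adjusted p = 0.316), and it turned to 0.062 with the most abundant transcript alone. The end of Plin4 overlaps the gene Hdgfl2 on the opposite strand, and the libraries were made to keep the strand. Of the droplet genes among the partners, Abhd5, G0s2 and Pnpla2 are given below.

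Pdk4 phosphorylates and inactivates the pyruvate dehydrogenase complex, which spares glucose when fatty acids are burned. Its FPKM (ENSMUSG00000019577, chr6:5483351-5496309, minus strand) was 1.20, 1.50 and 1.30 in control libraries, 3.99, 3.64 and 5.21 in dbdb libraries and 1.95, 2.18 and 2.14 in dbR libraries. No 2 groups overlapped, and the order was dbdb, dbR, control. Pdk4 rose by 1.60 in dbdb vs control mice (SE 0.14, limma adjusted p = 7.33e-05), a mean 3.20 times that of control mice. It fell by 0.98 in dbR vs dbdb mice (SE 0.14, adjusted p = 0.0254) and remained 0.62 above control in dbR mice (adjusted p = 0.0125). The call in dbR vs dbdb was lost under 7 of 16 alternatives, among them leaving out dbdb replicate 1 or any 1 dbR library (adjusted p up to 0.109), while its log2 fold change stayed between -1.09 and -0.76.

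Other pyruvate dehydrogenase kinases were also called in dbdb vs control mice. Pdk1 was at 5.72 ± 0.34, 16.0 ± 1.0 and 15.4 ± 0.34 FPKM (SD, n = 3) in control, dbdb and dbR mice, a rise of 1.47 in dbdb mice (limma adjusted p = 5.65e-06). Pdk3 was at 32.7 ± 5.3, 14.0 ± 0.79 and 13.5 ± 0.37 FPKM (SD, n = 3), a fall of 1.20 (adjusted p = 4.95e-05). Pdk2, more abundant than Pdk1, Pdk3 and Pdk4, was at 111 ± 8.8, 161 ± 23 and 142 ± 11 FPKM (SD, n = 3). It rose by 0.53 in dbdb mice (limma adjusted p = 0.00579) and was not called in dbR vs dbdb. For dbR vs dbdb the differences were -0.060 for Pdk1 (95% confidence interval -0.22 to 0.097, adjusted p = 0.712) and -0.055 for Pdk3 (-0.28 to 0.17, adjusted p = 0.822). Whether these differences were unlike that of Pdk4 was not tested.

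Of the 28 relatives and partners, 26 were tested. Among them 6 rose and 7 fell in dbdb vs control mice, against 13.1% and 13.4% of all genes. In dbR vs dbdb mice 2 rose and none fell, against 0.564% and 0.179% of all genes. The median log2 fold change was 0.074 and -0.050 in the same order. Those that rose in dbR mice were Gpihbp1 and Cdh13. Cdh13, T-cadherin, which binds adiponectin at the surface of endothelial cells, was at 1.11, 1.17 and 1.14 FPKM in control libraries, 0.581, 0.475 and 0.525 in dbdb libraries and 1.31, 1.48 and 1.18 in dbR libraries. It fell by 0.99 in dbdb vs control mice (limma adjusted p = 0.000800) and rose by 1.18 in dbR vs dbdb mice (adjusted p = 0.0140), a call that was lost under 1 of 15 alternatives, without dbR replicate 2 (adjusted p = 0.0837). Fabp5, the epidermal relative of Fabp4, was at 7.05 ± 1.2, 2.64 ± 0.36 and 4.61 ± 1.1 FPKM (SD, n = 3) in control, dbdb and dbR mice. It fell by 1.38 in dbdb mice (limma adjusted p = 0.000548), and its difference of 0.76 between dbR and dbdb did not pass (adjusted p = 0.0768). Fabp3, the form of heart and muscle, rose by 0.67 in dbdb mice (adjusted p = 0.00328).

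Angptl8, a secreted regulator of lipoprotein lipase, was listed at 0 in control replicate 1 and was at 0.233 and 0.596 FPKM in the other control libraries. It was at 1.85, 1.51 and 1.65 in dbdb libraries and 1.57, 0.906 and 0.859 in dbR libraries. The control libraries were all below the others, and Angptl8 was called in dbdb vs control mice (limma adjusted p = 0.00736). Among the droplet genes, the lipase cofactor Abhd5 fell by 0.54 (adjusted p = 0.000359) and G0s2, the inhibitor of the lipase Pnpla2, rose by 0.81 (adjusted p = 0.0269), a call lost under 5 of 16 alternatives. Pnpla2 itself was at 34.7 ± 1.4, 41.1 ± 5.9 and 35.4 ± 2.5 FPKM (SD, n = 3) and did not pass in dbdb vs control (adjusted p = 0.107).

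The 20 other PPARγ target genes of adipocytes were all tested. In dbdb vs control mice 10 rose and 3 fell, against 13.1% and 13.4% of all genes, with a median of 0.20. In dbR vs dbdb mice none rose and 1 fell, against 0.564% and 0.179% of all genes, with a median of -0.10. There 7 of the 20 had an unadjusted p under 0.05 by limma, and 13 log2 fold changes were below 0 and 7 above. The groups did not overlap for 10 of the 20, against 22.7% of all genes. Several of these genes have other roles in the kidney. Pck1, the gluconeogenic enzyme of the proximal tubule, was at 668 ± 53, 1805 ± 432 and 1784 ± 71 FPKM (SD, n = 3) in control, dbdb and dbR mice. It rose by 1.41 in dbdb mice (limma adjusted p = 0.000207), and the difference between dbR and dbdb was 0.010 (adjusted p = 0.984). Slc2a4, the insulin-responsive glucose transporter, was at 4.10 ± 0.92, 8.84 ± 0.92 and 8.71 ± 0.62 FPKM (SD, n = 3), and Ucp2, a mitochondrial carrier, at 10.7 ± 1.5, 21.7 ± 2.6 and 16.6 ± 0.37. Scd1, the fatty acid desaturase, was at 18.6, 16.1 and 12.9 FPKM in control libraries, 8.78, 8.45 and 6.97 in dbdb libraries and 19.8, 10.7 and 11.2 in dbR libraries. It fell by 0.96 in dbdb mice (limma adjusted p = 0.0105), and in dbR vs dbdb mice the difference was 0.73 (adjusted p = 0.141), with dbR replicate 1 high, as it was for Adipoq. The gene that fell in dbR mice was Lpin1, a phosphatidate phosphatase. Lpin1 was at 10.9 ± 1.3, 18.2 ± 2.1 and 11.8 ± 1.0 FPKM (SD, n = 3), and its change was -0.62 in dbR vs dbdb (limma adjusted p = 0.0445), lost under 9 of 16 alternatives.

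Of the 25 other PPAR target genes of fatty acid oxidation, 22 were tested and Fgf21 was listed at 0 in all 9 libraries. In dbdb vs control mice 10 rose and 3 fell, against 13.1% and 13.4% of all genes, with a median of 0.13. In dbR vs dbdb mice none was called by limma (5 of the 22 at an unadjusted p under 0.05), with a median of -0.074. Cyp4a14, a fatty acid hydroxylase and one of the most inducible PPARα targets, was at 4.67, 6.27 and 5.70 FPKM in control libraries, 183, 151 and 134 in dbdb libraries and 173, 179 and 215 in dbR libraries. It was far higher in all 6 db/db libraries than in control libraries, and the dbdb and dbR libraries overlapped. Its log2 fold change of dbdb against control mice was 4.79 (limma adjusted p = 1.33e-07). Cyp4a10 was at 86.3 ± 11, 184 ± 23 and 218 ± 32 FPKM (SD, n = 3) in control, dbdb and dbR mice. Cpt1b, which lets fatty acids into mitochondria, was at 3.18 ± 0.43, 6.32 ± 0.58 and 5.12 ± 0.020. In dbR vs dbdb mice 16 of the 22 log2 fold changes were below 0, and the groups did not overlap for 5 of the 22 (Cpt1a, Cpt1b, Cpt2 and Pex11a lower in dbR mice, Acaa1b higher). Groups also did not overlap for 22.7% of all genes tested, so this share of the list was at the background. Angptl4 and Pdk4 were in dbR mice at 40.6% and 48.9% of their dbdb means.

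**Figure D5:**
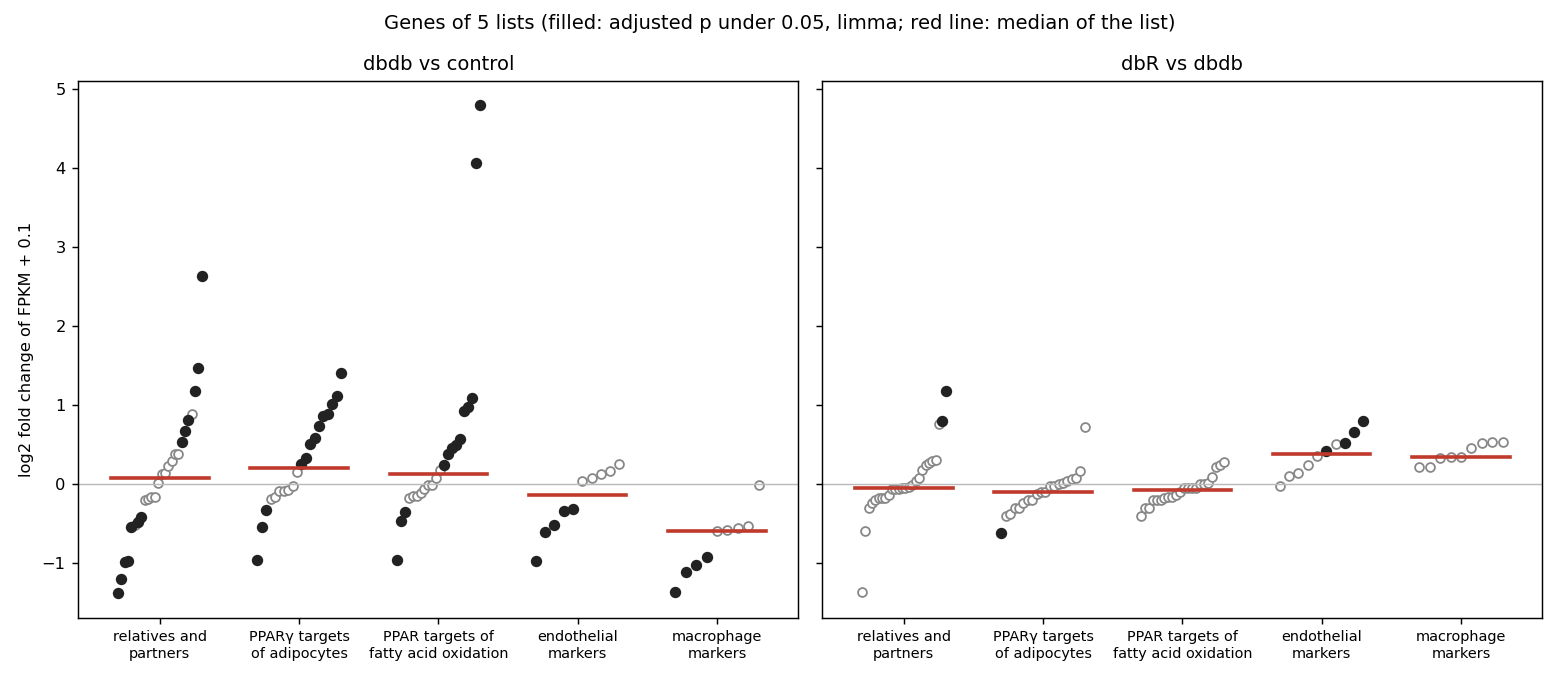
log2 fold change (y axis) of the genes of 5 lists (x axis) for dbdb against control (left) and dbR against dbdb (right). Each point is a gene, filled where the adjusted p from limma was under 0.05, and the red line is the median of the list. The PPARγ and fatty acid oxidation lists hold 10 genes each that rose in dbdb mice, and their medians in dbR vs dbdb are -0.10 and -0.074, while 4 of 10 endothelial markers rose there.

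Other cell types were followed with markers of the nephron. Of the proximal tubule markers 2 rose and 1 fell in dbdb vs control mice, and of 8 markers of the distal nephron and collecting duct 6 rose. Of all genes, 13.1% rose and 13.4% fell in that comparison. In dbR vs dbdb mice limma called none of either list, and 1 gene of each had an unadjusted p under 0.05. Of 6 podocyte markers 3 rose in dbdb mice, and in dbR vs dbdb none was called by limma or had an unadjusted p under 0.05. Brown adipocyte, adrenal cortex and skeletal muscle markers had 1, 2 and 1 genes above the filter, and limma called none of these in any comparison. Star, an adrenal gene, was the 1 gene among them with an unadjusted p under 0.05, in dbdb vs control mice. The part of these cell types in the values of the members was not tested.

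The genes whose profile over the 9 libraries was most like that of a member were found by the root mean square difference of z-scored log2(FPKM + 0.1). The 11609 candidates were genes other than the members whose mean FPKM reached 1. For Cd36 they were Oxct1, Aldh3a2 and Slc22a30, with differences of 0.0750, 0.0836 and 0.118, where 0 means the same profile. For Lpl they were Acat1 (0.0956), Slc22a26 (0.129) and Kdsr (0.151). Oxct1, the enzyme of ketone body use, was at 568, 552 and 640 FPKM in control libraries, 358, 363 and 388 in dbdb libraries and 355, 363 and 391 in dbR libraries, with control replicate 3 highest as for Cd36. For Angptl4 the nearest were Prkag3 (0.173), Oaf (0.237) and Slc35e3 (0.276), and for Pdk4 Dusp18 (0.251), Mfsd7b (0.260) and Gpr160 (0.266). For Fabp4 they were Tll1 (0.339), 2610524H06Rik (0.355) and Rpl22l1 (0.370). For Plin2 the nearest were Fbxo33, Idh3a and Ppp2ca (0.346 to 0.396), and for Plin4 Klhl17, Cdr2 and Cdk16 (0.312 to 0.332). Adipoq (Etnk2, Scd1 and Arhgap26), Cidec (Timm17a, Gemin7 and Lurap1l) and Plin1 (Tmem102, Col16a1 and Becn1) had profiles made of a few fragments, with differences of 0.273 to 0.441.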

How the data were processed

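Renal cortex RNA of 3 control, 3 dbdb and 3 dbR mice was sequenced as rRNA-depleted, stranded, paired 150-base libraries. The authors aligned reads with TopHat2 (2.0.9) to GRCm38.p2, assembled transcripts with Scripture and Cufflinks (2.1.1), and deposited Cufflinks FPKM per transcript. FPKM is divided by transcript length and library size and rests on how reads were split between transcripts. Read counts were not used here, and the lncRNA values were not used.

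FPKM was summed over the 50660 mRNA transcripts of 21950 genes. log2(FPKM + 0.1) of genes whose mean FPKM reached 0.1 was fitted with limma (3.58.1, R 4.3.3; lmFit, contrasts, eBayes with trend), 3 groups in 1 fit, two-sided. The fit was tested on simulated data. Depth was estimated from the steps between low FPKM values of genes with 1 transcript. Groups and replicate numbers came from the sample titles. Alternatives changed the pseudocount, filter, scaling, libraries fitted, replicate block, transcript choice and each library in turn. From each list, the up to 4 genes with the largest change among those called were named, for cell type lists also the 2 most abundant, and for each member the 3 nearest profiles. Cdh13, Lpin1, Tek, Retn, Lep, Adrb3, Fabp3, Lmf1, Abhd5, G0s2, Pnpla2, Sncg, Cpt1a, Cpt2, Pex11a, Trarg1, Acvr1c, Pdk2 and Acaa1b were named after their values were seen. The members and lists were chosen with earlier results of these data known. Not every gene chosen by the naming rule is reported here. Trarg1 and Angptl8 were matched by their older symbols. Tools outside R were python 3.11.15, numpy 2.4.6, pandas 2.3.3 and matplotlib 3.10.9.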

Additional observations from a re-analysis of the deposited data

How the results depend on the processing

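Lpl, Cd36, Angptl4 and Pdk4 in dbdb vs control, and Cd36, Lpl and Pdk4 in dbR vs control, kept their direction and their side of the threshold under all 16 alternatives. The weak comparison was dbR vs dbdb. Its 108 called genes became 31 without a filter, 166 with a mean FPKM of at least 1, 203 after scaling to the 75th percentile, 234 after quantile normalization, 22 with only the 6 libraries compared and 49 with the most abundant transcript, and 2 to 141 with 1 library left out. The lowest counts came without dbR replicate 2 (2) and without dbR replicate 3 (10). Without dbdb replicate 1, dbdb replicate 2 and dbR replicate 1 the counts were 36, 31 and 70. The 2 members called became 0 without a filter, 0 with 6 libraries and 1 with the most abundant transcript, and 0 to 1 with 1 library left out. Beyond the number of genes or libraries, the cause was not tested. The replicate block gave 23 genes and 1 member in dbR vs dbdb, Angptl4 (adjusted p = 0.0441). The replicate numbers are shared labels only, since same-numbered libraries deviated from their group means with correlations of -0.17 to 0.06, and 1 of 9 libraries correlated best with its own number. Values that changed sign follow. After scaling every library to an equal sum without mitochondrial genes, Plin2 was 0.0082 in dbdb vs control and Cd36 was -0.029 in dbR vs dbdb. With the most abundant transcript Plin4 was 0.062 in dbR vs dbdb, against -0.48. With 1 library left out, Cd36 lay between -0.088 and 0.14 in dbR vs dbdb (-0.034 without dbdb replicate 1, -0.088 without dbR replicate 3) and Adipoq between -0.49 and 0.24 in dbR vs control (0.24 without dbR replicate 2). That mitochondrial scaling moved the median of all genes by 0.15 in dbdb vs control, and the share of called genes that were higher was 78.3% against 49.5% there, 48.6% against 75.9% in dbR vs dbdb and 70.5% against 51.1% in dbR vs control (62.3% with the 75th percentile). Calls were gained in dbdb vs control for Adipoq (pseudocount of 0.01, only the 6 libraries) and Cidec (replicate block, without control replicate 2), and in dbR vs control for Plin2 (only the 6 libraries, replicate block). Adipoq, Cidec and Plin1 rest on at most 23.3 estimated fragments per library, which limits the precision of their differences.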
